A study of Homo sapiens with 9 samples.

Results

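The genes described here are 60 human genes of mitosis, the spindle and the kinetochore. They were taken as a list of symbols that covers cyclins and mitotic kinases, the spindle checkpoint, the anaphase promoting complex, the kinetochore, kinesin motors, spindle assembly, cytokinesis, condensin, FOXM1 and MKI67. Each symbol matched 1 Ensembl identifier among the 36753 identifiers with a value in all 9 libraries. The minimum for testing (at least 1 FPKM in at least 3 libraries) was met by 60 of 60, among 16135 genes tested in all. KIF15 alone met it through the siKDM5C and control groups only, with 0.712, 0.912 and 0.8303 FPKM in the siSIRT6 libraries. FPKM is the number of fragments per kilobase of a gene, scaled for library depth. Levels of genes of different length can thus be set side by side.

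A cell enters mitosis when cyclin B and its kinase CDK1 are switched on by the CDC25 phosphatases, and it leaves when the anaphase promoting complex marks cyclin B and securin for destruction. Between these events, kinesin motors and microtubule binding proteins build the spindle, kinetochores tie chromosomes to it, and the checkpoint holds back the anaphase promoting complex until every chromosome is attached. Most of these genes are transcribed late in the cell cycle, and FOXM1, B-MYB and the MuvB complex are known to act on them through a promoter element called the cell cycle genes homology region (CHR).

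The libraries came from PANC-1, a long-established human pancreatic cancer line, harvested 48 h after transfection. The groups were siSIRT6, in which short interfering RNA (siRNA) targets the chromatin deacylase SIRT6, siKDM5C, in which it targets the histone H3 lysine demethylase KDM5C, and a control transfection, with 3 libraries each. No other allele or agent is named for any group, and how many siRNAs were used, and of which sequence, is not stated. The labels leave it unsaid whether replicates are separate cultures. The p-values therefore measure a spread between libraries that may be technical.

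SIRT6 itself had 0.795, 0.509 and 0.487 FPKM in the siSIRT6 libraries, 5.05, 4.601 and 5.39 FPKM in the siKDM5C libraries and 6.196, 5.17 and 7.17 FPKM in the controls. KDM5C had 17.9, 17.6 and 17.9 FPKM in the siSIRT6 libraries, 3.65, 3.31 and 3.89 FPKM in the siKDM5C libraries and 17.99, 18.4 and 18.8 FPKM in the controls. Each targeted gene was lowest in the libraries named for it, with no overlap with the controls (SIRT6 after siSIRT6, log2 fold change -2.16, SE 0.12, adjusted p = 2.92e-06; KDM5C after siKDM5C, log2 fold change -2.07, SE 0.054, adjusted p = 8e-08). The reads behind the values totalled 18201414 to 26910442 per library, and the reads of the 60 genes went down to 44 in 1 library, for SPC25. The epithelial keratins KRT8, KRT18 and KRT19 stood between 138 and 619 FPKM in the 9 libraries, KRT7 between 3.11 and 7.13 FPKM and EPCAM between 0.842 and 3.52 FPKM. The leukocyte gene PTPRC and the endothelial genes PECAM1 and CDH5 were at or below 0.0705 FPKM in all 9, and no value for CD3E was used here. The monocyte gene CD14 was the exception at 1.79, 1.602 and 1.71 FPKM in the siSIRT6 libraries, 1.91, 2.13 and 1.83 FPKM in the siKDM5C libraries and 3.23, 2.83 and 2.83 FPKM in the controls, and its part in the results below was not tested. In RNA from whole cultures, fewer dividing cells and less RNA per dividing cell cannot be told apart.

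Promoter windows from RefSeq (GRCh38.p14, 250 bases before to 50 after each annotated start) were matched by symbol for 50 of the 60 genes, giving 63 windows. Of these, 11 are shown as the 100 bases before the start, 5′ to 3′ on the gene's strand. They were picked by hand as examples of the patterns of calls: genes that fell after both knockdowns (PLK1, KIF4A, KIF23), genes called after siSIRT6 and not after siKDM5C (CCNB2, KIF11), genes that went opposite ways (ESPL1, PRC1, HMMR, KIF2C) and genes called after siKDM5C and not after siSIRT6 (INCENP, SPC24). CHR matches are more common among them than among the 63 windows. CCNB1, for example, fell after both knockdowns, has no CHR match in its window and is not shown. Capitals mark matches on either strand to the CHR letters TTTGAA and to the CCAAT box letters CCAAT. Matches to each motif were counted separately, overlaps included.
PLK1 (chr16:23678789-23678888, plus strand): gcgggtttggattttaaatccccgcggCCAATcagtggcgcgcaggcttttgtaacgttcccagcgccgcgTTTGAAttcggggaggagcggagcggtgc
KIF4A (chrX:70290004-70290103, plus strand): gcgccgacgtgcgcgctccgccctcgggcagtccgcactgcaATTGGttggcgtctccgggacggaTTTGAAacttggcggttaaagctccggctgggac
KIF23 (chr15:69414249-69414348, plus strand): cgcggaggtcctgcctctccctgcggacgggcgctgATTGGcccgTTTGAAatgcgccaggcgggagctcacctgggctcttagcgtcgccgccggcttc
CCNB2 (chr15:59105046-59105145, plus strand): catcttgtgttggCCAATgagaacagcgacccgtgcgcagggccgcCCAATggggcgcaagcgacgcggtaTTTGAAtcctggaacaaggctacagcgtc
KIF11 (chr10:92593030-92593129, plus strand): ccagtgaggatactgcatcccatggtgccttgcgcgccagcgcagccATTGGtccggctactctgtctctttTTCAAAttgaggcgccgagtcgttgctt
ESPL1 (chr12:53268199-53268298, plus strand): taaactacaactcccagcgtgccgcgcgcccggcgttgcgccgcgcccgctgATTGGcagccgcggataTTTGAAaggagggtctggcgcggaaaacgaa
PRC1 (chr15:90994536-90994635, minus strand): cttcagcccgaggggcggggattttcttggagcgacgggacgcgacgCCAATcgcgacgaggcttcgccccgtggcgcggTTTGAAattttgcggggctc
HMMR (chr5:163460532-163460631, plus strand): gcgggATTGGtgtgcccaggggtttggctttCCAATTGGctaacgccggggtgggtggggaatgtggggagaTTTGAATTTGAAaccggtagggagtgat
KIF2C (chr1:44739737-44739836, plus strand): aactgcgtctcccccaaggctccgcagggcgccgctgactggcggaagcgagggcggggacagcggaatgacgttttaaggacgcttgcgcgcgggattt
INCENP (chr11:62123911-62124010, plus strand): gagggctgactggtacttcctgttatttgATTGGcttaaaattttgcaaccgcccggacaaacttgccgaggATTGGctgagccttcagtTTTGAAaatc
SPC24 (chr19:11155783-11155882, minus strand): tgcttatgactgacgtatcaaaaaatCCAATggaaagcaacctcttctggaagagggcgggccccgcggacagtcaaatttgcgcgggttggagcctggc

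In PLK1, the mitotic entry kinase, a CCAAT match lies upstream of the CHR match, and the same order is seen in KIF4A, KIF11, ESPL1 and PRC1. HMMR holds a pair of CHR matches side by side and CCAAT matches that overlap on opposite strands. SPC24 shows a CCAAT match only, and no match to either motif falls in the stretch of KIF2C. Over all windows, TTTGAA was found in 39 of 63 windows of the mitosis genes (61.9%), against 15.2% of all 35116 RefSeq windows of that length and 10.2% of the 14031 windows of genes tested here. CCAAT was found in 44 of 63 (69.8%), against 34.6% of all windows and 34.7% of those of tested genes. The letters GCGGGAA, a form of the E2F site, were in 7 of 63 (11.1%), against 6.55% of all windows and 9.74% of those of tested genes. Counted per gene, they were in 12% of the mitosis genes with a window and 12.8% of the tested genes with one, so that this share was near the background. A CHR match within 60 bases before the start was held by 19 of 63 windows (30.2%), against 2.71% of all windows and 1.64% of those of tested genes. A letter match describes the sequence and is not evidence of binding.

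**Figure D1:**
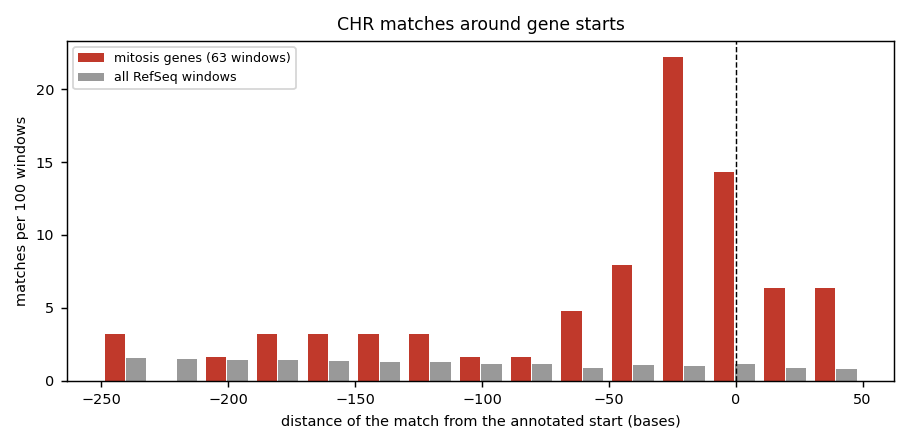
CHR matches (TTTGAA on either strand) by distance from the annotated start in bases, in bins of 20 bases, as matches per 100 windows; red bars are the 63 windows of the mitosis genes and grey bars all RefSeq windows. The highest red bar, at 22.22 per 100 windows, lies 11 to 30 bases before the start, where all windows have 1.02.

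After siSIRT6, 52 of the 60 mitosis genes fell, 1 rose and 7 did not pass the threshold (adjusted p below 0.05, limma-trend with Benjamini-Hochberg adjustment over 16135 genes). Among all genes tested, 26.9% fell and 23.9% rose in the same comparison (50.8% in either direction). The median log2 fold change of the 60 was -0.79, against -0.045 over all genes tested, and 17 of them were at or below -1. On the log2(FPKM + 1) scale the extremes were ANLN, a scaffold of the cleavage furrow, at -1.48 and CDC25B, a phosphatase that activates CDK1, at 0.55. As a percentage of the control mean FPKM, KIF15 was lowest at 26.35%, followed by PLK1 at 34.04% and ANLN at 34.53%. For 53 of the 60 every siSIRT6 library was below every control library, and for 1 every siSIRT6 library was above, against 35.2% and 30.3% of all genes tested. Their summed FPKM was 677.2, 687.1 and 682.0 in the siSIRT6 libraries, 1138.1, 1197.0 and 1118.2 in the siKDM5C libraries and 1183.4, 1180.1 and 1151.9 in the controls. The siSIRT6 sums thus lay apart from both other groups, whose sums overlapped.

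After siKDM5C, 13 of the 60 rose, 12 fell and 35 did not pass. Over all genes tested 25.6% rose and 25.9% fell (51.5% in either direction), so that the share of the mitosis genes called was no larger than the share of all genes. The median log2 fold change was -0.046, against -0.019 over all genes, with a range of -0.77 for the chromokinesin KIF4A to 0.89 for the passenger complex scaffold INCENP on the log2(FPKM + 1) scale. As a percentage of the control mean FPKM, CENPM was lowest at 54.65% (KIF4A, 56.18%) and HMMR highest at 195.66% (INCENP, 194.94%). Every siKDM5C library was below every control for 16 of the 60 and above for 13, against 27.7% and 28% of all genes tested. The called counts moved with the libraries and the correction used. Without siKDM5C replicate 2, 20 genes fell, the added ones being CDCA8, NUF2, KIF11, KIF14, KIF18A, ASPM, TOP2A and SMC4. With the trend over GC content and length removed, 21 rose, the added ones being CDK1, BUB1, CENPE, NDC80, KNL1, KIF20B, NUSAP1 and SMC2.

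Set directly against siKDM5C, siSIRT6 had 52 of the 60 lower and 1, CDC25B, higher, while 7 did not pass. Over all genes tested 21.3% were lower and 18.6% higher (39.9% in either direction). Every siSIRT6 library was below every siKDM5C library for 54 of the 60 and above for 1, against 27.8% and 23.9% of all genes tested. The median log2 difference was -0.79, against -0.024 over all genes. The 7 that did not pass were BUB3, CENPA, CENPM, SPC25, KIF4A, ECT2 and SMC4. Both knockdowns are compared with the same 3 controls, so their values are given side by side by gene. By the calls, 11 genes fell after both, namely CCNA2, CCNB1, PLK1, BUB3, TTK, PTTG1, CENPM, KIF4A, KIF23, ANLN and ECT2. Another 10 fell after siSIRT6 and rose after siKDM5C, namely CDC25A, ESPL1, CENPF, CENPI, CENPN, KIF2C, TPX2, HMMR, PRC1 and NCAPD2. CDC25B went the other way, 31 fell after siSIRT6 and did not pass after siKDM5C, 3 rose after siKDM5C and did not pass after siSIRT6 (BIRC5, INCENP and SPC24), and 4 passed in neither (CENPA, CENPE, SPC25 and KIF20B). With 52 of the 60 lower after siSIRT6, most genes called either way after siKDM5C also fell after siSIRT6. The share of all genes tested with each pair of calls was not worked out, so these counts are a listing only.

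**Figure D2:**
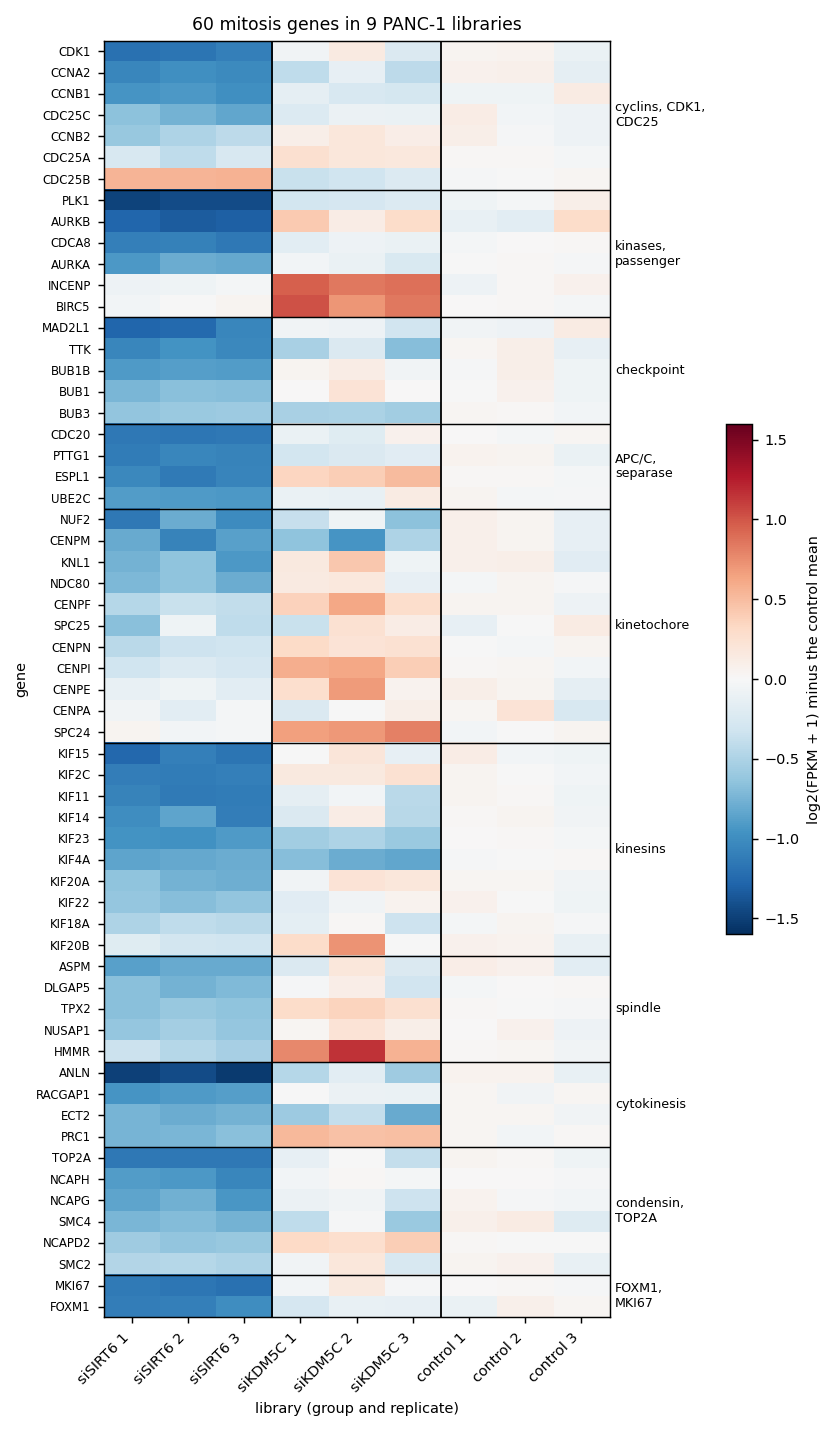
Colour gives log2(FPKM + 1) of each of the 60 genes (down the page, by class) in each of the 9 libraries (across, siSIRT6, siKDM5C, control) minus that gene's control mean. The siSIRT6 columns are blue for all genes but CDC25B and a few pale ones, while the siKDM5C columns hold both colours and BIRC5, INCENP, SPC24 and HMMR are reddest there.

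Among the cyclins, CDK1 and the CDC25 phosphatases, 6 of 7 fell after siSIRT6 and 1 rose (median log2 fold change -0.75), while after siKDM5C 3 fell, 1 rose and 3 did not pass (median -0.14). Over all genes tested, 26.9% fell and 23.9% rose after siSIRT6, and 25.9% fell and 25.6% rose after siKDM5C. These shares apply to each class below. With 2 to 11 genes per class, the siKDM5C counts of a class are not read as differing from them. CDK1, the kinase that drives entry into mitosis, had 8.44, 8.58 and 9.09 FPKM after siSIRT6, 19.8, 22.8 and 17.5 FPKM after siKDM5C and 21.2, 21.5 and 19.1 FPKM in the controls. Cyclin B1, its activating partner encoded by CCNB1, had 29.9, 30.5 and 29.3 FPKM after siSIRT6, 52.9, 49.01 and 48.2 FPKM after siKDM5C and 56.1, 56.1 and 64.2 FPKM in the controls. Both were lower in every siSIRT6 library than in any other library (CDK1, log2 fold change -1.15, SE 0.092, adjusted p = 2.11e-05; CCNB1, log2 fold change -0.95, SE 0.066, adjusted p = 9.71e-06). After siKDM5C, CDK1 overlapped with the controls (-0.045, adjusted p = 0.705), while CCNB1 lay below them (-0.23, adjusted p = 0.0188), a call lost when only those 2 groups were fitted (adjusted p up to 0.0589 among the settings that lost it). Cyclin A2, which pairs with CDK1 and CDK2 before mitosis, had 9.21, 9.65 and 9.34 FPKM after siSIRT6, 14.9, 18.3 and 14.8 FPKM after siKDM5C and 21.1, 21.2 and 18.01 FPKM in the controls. CCNA2 fell after siSIRT6 (-1.02, adjusted p = 4.22e-05) and also after siKDM5C (-0.31, adjusted p = 0.0195), and was lower in siSIRT6 than in siKDM5C (-0.70, adjusted p = 0.000517). Replicate 2 of siKDM5C reached into the control range, and the siKDM5C call was lost without siKDM5C replicate 1 or 3 or control replicate 1 or 2 (adjusted p 0.0522 to 0.0682). CCNB2 and CDC25C fell after siSIRT6 (-0.51 and -0.75) and did not pass after siKDM5C (0.13 and -0.14).

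The CDC25 phosphatases did not move together. CDC25B (ENSG00000101224, GRCh38 chromosome 20, 3786772 to 3806121) had 87.4, 87.6 and 88.5 FPKM after siSIRT6, 46.4, 47.7 and 51.2 FPKM after siKDM5C and 59.02, 59.3 and 61.2 FPKM in the controls. The siSIRT6 libraries were above and the siKDM5C libraries below all controls (log2 fold change 0.55, SE 0.049, adjusted p = 4.22e-05 after siSIRT6; log2 fold change -0.30, SE 0.049, adjusted p = 0.00113 after siKDM5C). CDC25A, which acts earlier in the cycle as well as in mitosis, had the reverse order at 2.48, 2.15 and 2.47 FPKM after siSIRT6, 3.98, 3.74 and 3.67 FPKM after siKDM5C and 3.21, 3.21 and 3.08 FPKM in the controls. It fell after siSIRT6 (-0.31, adjusted p = 0.00269) and rose after siKDM5C (0.20, adjusted p = 0.0195), the second call being lost without siKDM5C replicate 1 or control replicate 3 (adjusted p up to 0.0686).

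Of the 6 genes of the mitotic kinases and the chromosomal passenger complex, 4 fell after siSIRT6 (median -0.98) and 2 did not pass. PLK1 (ENSG00000166851, GRCh38 chromosome 16, 23677656 to 23690367), a kinase of centrosome maturation and mitotic entry, had 8.12, 8.37 and 8.42 FPKM after siSIRT6, 19.7, 19.98 and 20.7 FPKM after siKDM5C and 23.3, 23.9 and 25.99 FPKM in the controls. The 3 groups did not overlap, and siSIRT6 was lowest (log2 fold change -1.45, SE 0.053, adjusted p = 4.63e-07 after siSIRT6; log2 fold change -0.26, SE 0.053, adjusted p = 0.00337 after siKDM5C). An antisense transcript that overlaps PLK1 (ENSG00000261266) moved with it, at 13.8 ± 1.77 FPKM in the siSIRT6 libraries, 29.03 ± 2.22 in the siKDM5C libraries and 35.1 ± 1.19 in the controls (SD, n = 3). Whether counting used the strand is not stated, so reads of such overlapping genes cannot be told apart. AURKA, the centrosomal Aurora kinase, fell after siSIRT6 (-0.84, adjusted p = 1.53e-05) and did not pass after siKDM5C (-0.13, adjusted p = 0.114).

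The passenger complex joins the kinase AURKB to INCENP, BIRC5 (survivin) and CDCA8 (borealin), and its 4 genes split into pairs after siSIRT6. AURKB had 8.097, 7.72 and 7.84 FPKM after siSIRT6, 28.3, 22.9 and 25.7 FPKM after siKDM5C and 19.1, 18.4 and 25.9 FPKM in the controls. CDCA8 had 12.9, 13.1 and 12.4 FPKM after siSIRT6, 25.5, 27.1 and 26.6 FPKM after siKDM5C and 28.3, 29.05 and 29.2 FPKM in the controls. These 2 fell to well under the control range after siSIRT6 (AURKB, log2 fold change -1.30, SE 0.12, adjusted p = 6.03e-05; CDCA8, log2 fold change -1.11, SE 0.046, adjusted p = 8.43e-07). INCENP (ENSG00000149503, GRCh38 chromosome 11, 62123973 to 62153163), by contrast, had 8.78, 8.91 and 9.19 FPKM after siSIRT6, 19.1, 17.7 and 18.1 FPKM after siKDM5C and 8.83, 9.49 and 9.85 FPKM in the controls. BIRC5 had 8.42, 8.67 and 9.03 FPKM after siSIRT6, 18.7, 14.9 and 16.5 FPKM after siKDM5C and 8.77, 8.88 and 8.57 FPKM in the controls. In both, the siSIRT6 libraries overlapped with the controls (INCENP, -0.061, adjusted p = 0.376; BIRC5, -0.0049, adjusted p = 0.962) and every siKDM5C library was above all others (INCENP, log2 fold change 0.89, SE 0.054, adjusted p = 5.02e-06; BIRC5, log2 fold change 0.86, SE 0.075, adjusted p = 3.7e-05). AURKB after siKDM5C did not pass (0.28, adjusted p = 0.0937) and did so without control replicate 3 (adjusted p = 0.00514), the control library in which it was highest. CDCA8 was below all controls in every siKDM5C library and did not pass (-0.12, adjusted p = 0.0508). Its fall passed in 5 other settings (adjusted p 0.0207 to 0.0495). BIRC5 and AURKB are named here after their values were seen.

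All 5 spindle checkpoint genes fell after siSIRT6 (median -0.89), and 2 of them, BUB3 and TTK, also fell after siKDM5C, where 25.9% of all genes tested fell. BUB1B, which encodes the checkpoint protein BubR1, had 7.93, 8.05 and 8.02 FPKM after siSIRT6, 16.2, 17.1 and 15.1 FPKM after siKDM5C and 15.5, 16.8 and 14.96 FPKM in the controls. BUB3, which docks BUB1 and BubR1 at the kinetochore, had 14.7, 15.1 and 15.1 FPKM after siSIRT6, 15.9, 16.01 and 15.5 FPKM after siKDM5C and 23.7, 23.6 and 22.5 FPKM in the controls. BUB1B fell after siSIRT6 (log2 fold change -0.89, SE 0.0604, adjusted p = 8.94e-06) and overlapped with the controls after siKDM5C (0.034, adjusted p = 0.671). BUB3 was below all controls after either knockdown (log2 fold change -0.60, SE 0.044, adjusted p = 1.27e-05 after siSIRT6; log2 fold change -0.53, SE 0.044, adjusted p = 2.64e-05 after siKDM5C). The difference of BUB3 between the knockdowns did not pass (log2 fold change -0.075, SE 0.044, adjusted p = 0.203). TTK, the kinase that starts checkpoint signalling, had 4.99, 5.37 and 5.03 FPKM after siSIRT6, 7.57, 9.48 and 6.65 FPKM after siKDM5C and 11.6, 12.1 and 10.3 FPKM in the controls, with the siKDM5C libraries between the other groups (-1.01, adjusted p = 0.000129 after siSIRT6; -0.48, adjusted p = 0.00655 after siKDM5C). MAD2L1, which encodes the checkpoint effector MAD2, reached -1.19 and BUB1 -0.70 after siSIRT6, and neither passed after siKDM5C (-0.15 and 0.076).

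The 4 genes of the anaphase promoting complex pathway and separase all fell after siSIRT6 (median -1.07). PTTG1, which encodes securin, the inhibitor of separase, had 18.2, 19.3 and 18.97 FPKM after siSIRT6, 33.2, 34.5 and 35.6 FPKM after siKDM5C and 42.5, 41.9 and 37.9 FPKM in the controls. ESPL1, which encodes separase, the protease that cleaves cohesin at anaphase, had 2.77, 2.51 and 2.702 FPKM after siSIRT6, 8.7997, 9.13 and 9.97 FPKM after siKDM5C and 6.802, 6.77 and 6.52 FPKM in the controls. Securin was lowest in siSIRT6, intermediate in siKDM5C and highest in the controls (log2 fold change -1.07, SE 0.058, adjusted p = 2.96e-06 after siSIRT6; log2 fold change -0.24, SE 0.058, adjusted p = 0.00885 after siKDM5C). Separase was likewise lowest in siSIRT6 (log2 fold change -1.07, SE 0.058, adjusted p = 2.92e-06), but its siKDM5C libraries were above all controls (log2 fold change 0.42, SE 0.058, adjusted p = 0.000441). CDC20, the activator of the complex, and UBE2C, its ubiquitin-conjugating enzyme, were at -1.15 and -0.90 after siSIRT6, and did not pass after siKDM5C (-0.0795 and -0.032). A processed copy of UBE2C, UBE2CP5, had group means of 4.85 FPKM in siSIRT6, 4.54 in siKDM5C and 3.82 in the controls, and the value of UBE2C is uncertain to the extent that reads can match both.

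The kinetochore and centromere class had the smallest median after siSIRT6 of the 10 classes, -0.38, with 7 of 11 genes lower and 4 not passing (CENPA, CENPE, SPC24 and SPC25). After siKDM5C 4 rose (CENPF, CENPI, CENPN and SPC24), 1 fell (CENPM) and 6 did not pass. Over all genes tested 25.6% rose and 25.9% fell there, and the difference of the 11 genes from these shares was not tested. The 4 subunits of the NDC80 complex, which grips microtubules, split: NDC80 and NUF2 fell after siSIRT6 (-0.72, adjusted p = 0.00016; -0.98, adjusted p = 0.000774), while SPC24 and SPC25 did not pass (-0.0104, adjusted p = 0.891; -0.38, adjusted p = 0.119). NDC80 had 6.21, 6.56 and 5.82 FPKM after siSIRT6, 12.04, 12.3 and 9.83 FPKM after siKDM5C and 10.6, 11.2 and 10.7 FPKM in the controls. SPC24 had 12.5, 11.7 and 11.9 FPKM after siSIRT6, 19.6, 20.2 and 21.99 FPKM after siKDM5C and 11.7, 12.1 and 12.6 FPKM in the controls. The siSIRT6 libraries were thus below all others for NDC80, and for SPC24 the siKDM5C libraries stood above both other groups (log2 fold change 0.72, SE 0.056, adjusted p = 2e-05). SPC25 passed after siSIRT6 without siSIRT6 replicate 2 (adjusted p between 0.0309 and 0.047 in the 2 settings that gained it).

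Of the centromere proteins, CENPM had 2.47, 1.89 and 2.31 FPKM after siSIRT6, 2.87, 2.16 and 3.29 FPKM after siKDM5C and 5.43, 5.27 and 4.53 FPKM in the controls. Both knockdowns were below the controls (log2 fold change -0.92, SE 0.12, adjusted p = 0.000372 after siSIRT6; log2 fold change -0.70, SE 0.12, adjusted p = 0.00164 after siKDM5C), at as few as 64 reads per library. CENPI, a subunit of the inner kinetochore, had 3.64, 3.998 and 3.83 FPKM after siSIRT6, 7.68, 7.92 and 6.63 FPKM after siKDM5C and 4.88, 4.92 and 4.64 FPKM in the controls. CENPN, which binds the nucleosome that holds CENPA, had 4.66, 5.11 and 5.13 FPKM after siSIRT6, 8.51, 7.93 and 8.07 FPKM after siKDM5C and 6.59, 6.47 and 6.91 FPKM in the controls. For both, siSIRT6 lay below and siKDM5C above all controls (CENPI, -0.27, adjusted p = 0.0102 after siSIRT6 and 0.53, adjusted p = 0.000295 after siKDM5C; CENPN, -0.36, adjusted p = 0.000674 after siSIRT6 and 0.26, adjusted p = 0.00379 after siKDM5C). The large outer kinetochore protein CENPF had the same order (-0.40, adjusted p = 0.00502 after siSIRT6; 0.43, adjusted p = 0.00367 after siKDM5C), with 9.39, 10.1 and 9.84 FPKM after siSIRT6, 17.3, 20.9 and 16.4 FPKM after siKDM5C and 13.6, 13.7 and 12.4 FPKM in the controls. CENPA, the histone variant that marks the centromere, passed in no comparison and had 9.08, 8.26 and 9.27 FPKM after siSIRT6, 7.93, 9.402 and 10.2 FPKM after siKDM5C and 9.697, 11.2 and 7.78 FPKM in the controls.

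Of the 10 kinesin motors, 9 fell after siSIRT6 (median -0.88) and KIF20B did not pass, although its siSIRT6 libraries were all below the controls (-0.27, adjusted p = 0.19) and it passed without siKDM5C replicate 2 (adjusted p between 0.0172 and 0.0397 in the 2 settings that gained it). KIF2C, a motor that takes microtubules apart at the centromere, had 10.1, 10.04 and 10.3 FPKM after siSIRT6, 25.7, 25.7 and 27.4 FPKM after siKDM5C and 23.7, 22.97 and 22.3 FPKM in the controls. KIF23, the motor of the spindle midzone that RACGAP1 partners, had 7.57, 7.57 and 7.91 FPKM after siSIRT6, 10.4, 10.8 and 10.1 FPKM after siKDM5C and 15.8, 15.99 and 15.4 FPKM in the controls. KIF4A, a motor of chromosome arms and the midzone, had 8.41, 8.61 and 8.74 FPKM after siSIRT6, 9.505, 8.78 and 8.51 FPKM after siKDM5C and 15.7, 15.9 and 16.1 FPKM in the controls. All 3 were below every control library after siSIRT6. KIF2C fell after siSIRT6 (log2 fold change -1.11, SE 0.047, adjusted p = 9.28e-07) and was slightly above all controls after siKDM5C (log2 fold change 0.18, SE 0.047, adjusted p = 0.0108). KIF23 fell after both and more after siSIRT6 (log2 fold change -0.94, SE 0.046, adjusted p = 1.82e-06 after siSIRT6; log2 fold change -0.55, SE 0.046, adjusted p = 2.93e-05 after siKDM5C; direct comparison -0.40, adjusted p = 0.000294). KIF4A fell after both, and its knockdown groups overlapped (log2 fold change -0.82, SE 0.0499, adjusted p = 5.27e-06 after siSIRT6; log2 fold change -0.77, SE 0.0499, adjusted p = 7.83e-06 after siKDM5C; direct comparison -0.0504, adjusted p = 0.454).

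Among the other motors, KIF11, the motor that pushes the spindle poles apart, had 8.41, 7.99 and 8.08 FPKM after siSIRT6, 16.9, 18.2 and 13.6 FPKM after siKDM5C and 19.4, 18.98 and 17.8 FPKM in the controls. KIF15, which backs up KIF11, had 0.712, 0.912 and 0.8303 FPKM after siSIRT6, 3.09, 3.695 and 2.74 FPKM after siKDM5C and 3.44, 2.98 and 2.89 FPKM in the controls. The siSIRT6 libraries of both were far below the rest (-1.11, adjusted p = 2.89e-05 for KIF11; -1.17, adjusted p = 2.52e-05 for KIF15), and neither passed after siKDM5C (-0.20 and 0.021). KIF14, KIF18A, KIF20A and KIF22 also fell after siSIRT6, with log2 fold changes from -0.98 (KIF14) to -0.45 (KIF18A), and did not pass after siKDM5C. An antisense gene that overlaps KIF2C averaged 145 FPKM over the 9 libraries, well above KIF2C itself, and was not called in either comparison with the controls (adjusted p = 0.317 after siSIRT6 and 0.978 after siKDM5C).

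All 5 spindle assembly genes fell after siSIRT6 (median -0.65), while after siKDM5C 2 rose (TPX2 and HMMR), none fell and 3 did not pass. Over all genes tested 25.6% rose and 25.9% fell after siKDM5C. TPX2, which activates AURKA on spindle microtubules, had 66.98, 70.01 and 68.2 FPKM after siSIRT6, 132, 138 and 128 FPKM after siKDM5C and 109, 107 and 106 FPKM in the controls. HMMR, a microtubule protein of the spindle poles that is also known as a hyaluronan receptor, had 3.77, 3.44 and 3.204 FPKM after siSIRT6, 9.36, 12.5 and 7.89 FPKM after siKDM5C and 5.13, 5.23 and 4.86 FPKM in the controls. TPX2 was in separate ranges in the 3 groups (log2 fold change -0.65, SE 0.046, adjusted p = 1.19e-05 after siSIRT6; log2 fold change 0.30, SE 0.046, adjusted p = 0.000814 after siKDM5C). HMMR was too, with its widest spread in siKDM5C (log2 fold change -0.44, SE 0.13, adjusted p = 0.0231 after siSIRT6; log2 fold change 0.83, SE 0.13, adjusted p = 0.0011 after siKDM5C). The fall of HMMR was lost without siSIRT6 replicate 2 or 3 or control replicate 1 or 2 (adjusted p 0.0569 to 0.0748). Its antisense gene HMMR-AS1 also rose after siKDM5C, with 6.00 ± 1.75 FPKM in siKDM5C and 2.74 ± 0.309 FPKM in the controls (SD, n = 3). NUSAP1, a protein of spindle microtubules near chromatin, had 10.8, 11.4 and 10.8 FPKM after siSIRT6, 17.6, 20.1 and 18.4 FPKM after siKDM5C and 17.3, 18.1 and 16.1 FPKM in the controls. It fell after siSIRT6 (-0.59, adjusted p = 0.000117) and overlapped with the controls after siKDM5C (0.11, adjusted p = 0.169), as did DLGAP5 and ASPM (-0.71 and -0.83 after siSIRT6; -0.074 and -0.093 after siKDM5C).

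The 4 cytokinesis genes all fell after siSIRT6 (median -0.84). After siKDM5C 2 fell, 1 rose and 1 did not pass, against 25.9% that fell and 25.6% that rose over all genes tested. ANLN (ENSG00000011426, GRCh38 chromosome 7, 36389806 to 36453791) had 19.1, 19.9 and 18.4 FPKM after siSIRT6, 39.99, 49.1 and 37.1 FPKM after siKDM5C and 57.5, 57.9 and 51.1 FPKM in the controls. ECT2, the exchange factor that activates the GTPase RhoA at the cell equator, had 23.9, 23.2 and 23.6 FPKM after siSIRT6, 26.8, 31.03 and 22.9 FPKM after siKDM5C and 41.6, 41.4 and 39.2 FPKM in the controls. ANLN was lowest in siSIRT6 with siKDM5C between (log2 fold change -1.48, SE 0.10, adjusted p = 8.72e-06 after siSIRT6; log2 fold change -0.40, SE 0.10, adjusted p = 0.00985 after siKDM5C). ECT2 was below the controls in both, and its siKDM5C range took in the siSIRT6 range (log2 fold change -0.76, SE 0.094, adjusted p = 0.00024 after siSIRT6; log2 fold change -0.59, SE 0.094, adjusted p = 0.000986 after siKDM5C). PRC1, which bundles the microtubules of the midzone, had 12.1, 12.3 and 12.9 FPKM after siSIRT6, 30.5, 29.3 and 29.6 FPKM after siKDM5C and 21.5, 20.3 and 21.2 FPKM in the controls. RACGAP1, the partner of KIF23 at the midzone, had 11.9, 12.1 and 12.5 FPKM after siSIRT6, 23.6, 22.2 and 21.9 FPKM after siKDM5C and 24.2, 22.7 and 24.3 FPKM in the controls. PRC1 thus fell after siSIRT6 (log2 fold change -0.71, SE 0.046, adjusted p = 7.36e-06) and rose after siKDM5C (log2 fold change 0.49, SE 0.046, adjusted p = 5.86e-05), and RACGAP1 fell after siSIRT6 (log2 fold change -0.91, SE 0.0501, adjusted p = 3.27e-06) and did not pass after siKDM5C (-0.069, adjusted p = 0.279). PRC1-AS1, on the opposite strand, went the same 2 ways, with 8.43 ± 0.208 FPKM in siSIRT6, 19.7 ± 0.945 FPKM in siKDM5C and 14.1 ± 0.318 FPKM in the controls (SD, n = 3).

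Condensin compacts mitotic chromosomes and topoisomerase II alpha (TOP2A) untangles them, and all 6 genes of this class fell after siSIRT6 (median -0.79). TOP2A had 17.2, 17.2 and 17.2 FPKM after siSIRT6, 35.9, 39.2 and 29.9 FPKM after siKDM5C and 40.7, 39.96 and 37.5 FPKM in the controls. NCAPH, the kleisin subunit of condensin I, had 3.11, 3.05 and 2.703 FPKM after siSIRT6, 6.45, 6.78 and 6.49 FPKM after siKDM5C and 6.72, 6.697 and 6.55 FPKM in the controls. Both fell after siSIRT6 (log2 fold change -1.15, SE 0.089, adjusted p = 1.83e-05 for TOP2A; log2 fold change -0.95, SE 0.054, adjusted p = 3.74e-06 for NCAPH) and overlapped with the controls after siKDM5C (-0.17, adjusted p = 0.136; -0.015, adjusted p = 0.833). NCAPD2, another subunit of condensin I, had 10.97, 10.4 and 10.7 FPKM after siSIRT6, 21.02, 20.4 and 22.3 FPKM after siKDM5C and 16.9, 16.7 and 16.6 FPKM in the controls. It fell after siSIRT6 (log2 fold change -0.60, SE 0.048, adjusted p = 2.15e-05) and was the one gene of the class that rose after siKDM5C (log2 fold change 0.33, SE 0.048, adjusted p = 0.000626). SMC2, SMC4 and NCAPG were at -0.47, -0.73 and -0.85 after siSIRT6, and did not pass after siKDM5C (-0.046, -0.34 and -0.16).

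FOXM1, a transcription factor of late cell cycle genes, had 6.58, 6.63 and 7.18 FPKM after siSIRT6, 12.5, 14.01 and 13.97 FPKM after siKDM5C and 14.2, 16.3 and 15.7 FPKM in the controls. MKI67, which encodes the proliferation antigen Ki-67, had 12.1, 11.9 and 11.6 FPKM after siSIRT6, 26.8, 31.1 and 27.4 FPKM after siKDM5C and 27.8, 28.1 and 27.2 FPKM in the controls. Both fell after siSIRT6 with no overlap (log2 fold change -1.07, SE 0.069, adjusted p = 6.67e-06 for FOXM1; log2 fold change -1.16, SE 0.0601, adjusted p = 2.45e-06 for MKI67). Neither passed after siKDM5C (-0.17, adjusted p = 0.0606 for FOXM1; 0.035, adjusted p = 0.657 for MKI67). The siKDM5C libraries of FOXM1 were nevertheless all below the controls, and the fall passed in 5 other settings, 1 of them without control replicate 1 (adjusted p 0.00791 to 0.049 over the 5).

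**Figure D3:**
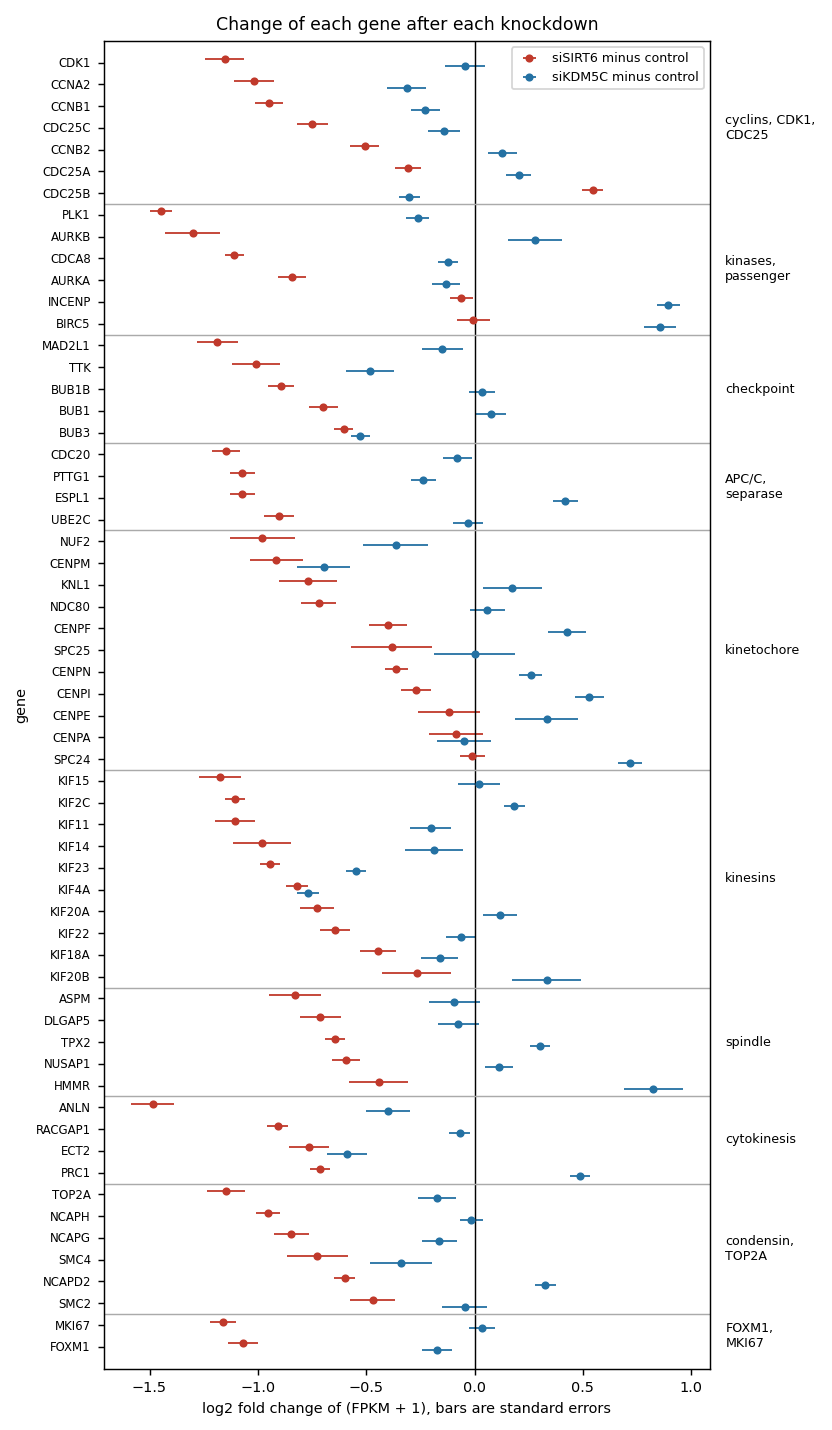
Log2 fold change of (FPKM + 1) with its standard error for each gene, by class, after siSIRT6 (red) and after siKDM5C (blue), each against the same 3 controls. All red points but CDC25B lie below 0, from -1.48 for ANLN, while the blue points spread to both sides, from -0.77 for KIF4A to 0.89 for INCENP.

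**Figure D4:**
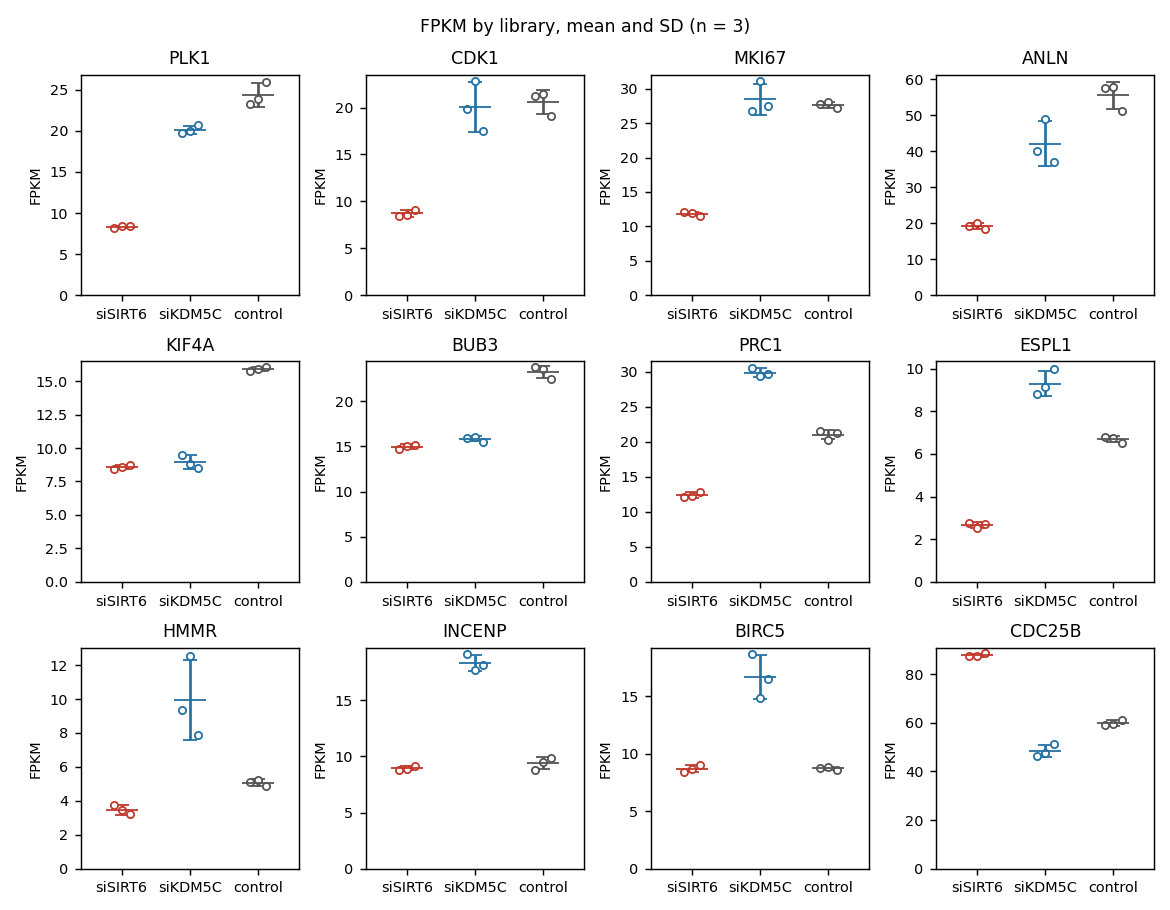
FPKM of 12 genes in each library (points), with the mean and SD of each group (n = 3). The siSIRT6 points are lowest for PLK1, CDK1, MKI67, ANLN, PRC1, ESPL1 and HMMR, near the siKDM5C points for KIF4A and BUB3, at the control level for INCENP and BIRC5, and highest for CDC25B.

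By level per length, TPX2 was the highest of the 60 in the controls and in siKDM5C, and CDC25B in siSIRT6. Means ran from 0.818 FPKM (KIF15) to 87.8 FPKM (CDC25B) in siSIRT6, from 2.603 FPKM (SPC25) to 133 FPKM (TPX2) in siKDM5C and from 2.56 FPKM (SPC25) to 108 FPKM (TPX2) in the controls. The median of the 60 means was 8.23 FPKM in siSIRT6, 14.8 FPKM in siKDM5C and 13.3 FPKM in the controls, against 5.55, 5.54 and 5.70 FPKM over all genes tested. In the controls CDC25B, UBE2C, CCNB1, CDC20 and ANLN followed TPX2. TPX2 was above all of them in every control library. From CDC25B down, neighbours in that order had overlapping ranges, but CDC25B was above CDC20 and ANLN in every control library, and UBE2C above CDC20. In siSIRT6 only TPX2 came near CDC25B, and these ranges were separate.

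The siKDM5C libraries differed among themselves by more than the siSIRT6 libraries did, and the deviations of the mitosis genes in replicates 2 and 3 varied with base composition in opposite directions. Replicate 2 was the highest of its group for 37 of the 60 genes and replicate 3 the lowest for 33. Across the 60 genes, the deviation of a gene from its siKDM5C mean correlated with the GC content of its longest transcript at r = 0.04 in replicate 1, -0.83 in replicate 2 and 0.84 in replicate 3. Over 15920 genes the same correlations were -0.03, -0.43 and 0.51, and the genes of a library share its depth and preparation. Deviations are taken from the mean of the same 3 libraries. With replicate 1 near flat, those of replicates 2 and 3 must mirror each other, so they are 1 contrast between libraries and not 2 separate trends. The median GC content was 43.2% for the mitosis genes, against 49.1% for all genes tested with a value. In the controls, replicate 3 was lowest for 41 of the 60 (r = 0.39 with GC content). KIF20B, with a GC content of 34.2%, averaged 3.71 ± 0.227 FPKM in siSIRT6, 6.28 ± 1.86 in siKDM5C and 4.67 ± 0.403 in the controls (SD, n = 3 each). The part of base composition in the siKDM5C results was not tested beyond the fit with its trend removed.

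**Figure D5:**
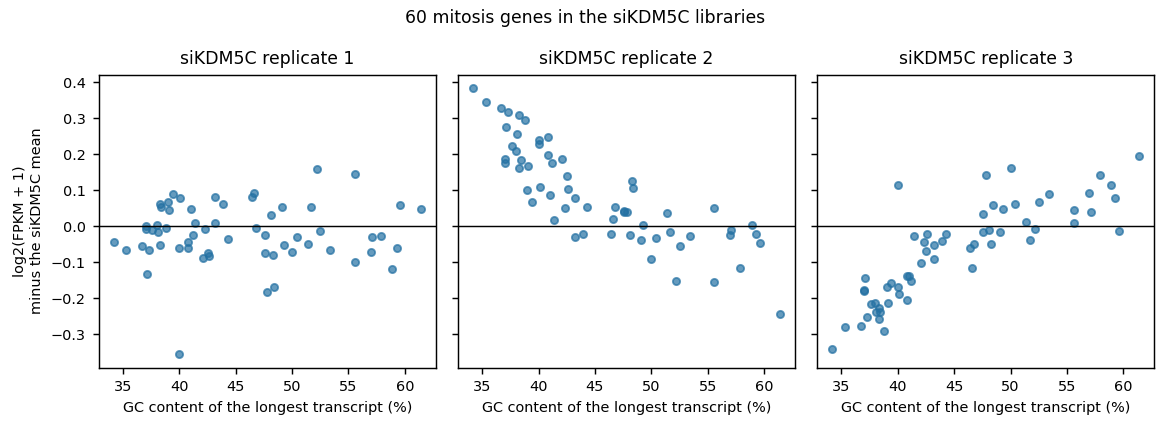
Deviation of each of the 60 genes (points) from its siKDM5C mean, as log2(FPKM + 1), against the GC content of its longest transcript in percent, for the 3 siKDM5C libraries. Replicate 1 is flat, replicate 2 falls with GC content and replicate 3 rises with it.

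Genes with and without the CHR letters in a window both included many that fell after siSIRT6. Of 36 genes with a match, 32 fell (median -0.79), and of 14 genes without one, 11 fell and 1, CDC25B, rose (median -0.71). Of the 10 genes with no window used here, 9 fell (median -0.87). After siKDM5C, 7 rose and 5 fell of the 36, and 4 rose and 4 fell of the 14. Over all genes tested, 26.9% fell after siSIRT6, and 25.6% rose and 25.9% fell after siKDM5C. The siKDM5C counts of the 36 and the 14 were near or below those shares. INCENP and KIF2C, shown above, are examples on either side: INCENP has a CHR match and did not pass after siSIRT6, and KIF2C has none and fell.

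Genes that overlap another gene of at least 1 FPKM on the opposite strand numbered 18 of the 60. Of the other 42, 35 fell after siSIRT6, against 26.9% of all genes tested. After siKDM5C, 7 of the 42 rose and 7 fell, against 25.6% and 25.9% of all genes tested. Neither siKDM5C count was above that background.

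A further 120 genes of the same pathways that are not among the 60 were followed in 8 lists, and 118 of them were tested. After siSIRT6 58 fell and 19 rose (median -0.25), and after siKDM5C 27 fell and 33 rose (median 0.007). Of the 118, 49.2% fell and 16.1% rose after siSIRT6, against 26.9% and 23.9% of all genes tested. After siKDM5C 22.9% fell and 28.0% rose, near the 25.9% and 25.6% of all genes tested. KIF18B, a microtubule-shortening kinesin, had 2.78, 2.84 and 2.57 FPKM after siSIRT6, 6.44, 6.704 and 7.72 FPKM after siKDM5C and 10.4, 10.3 and 10.9 FPKM in the controls. MELK, a kinase of dividing cells, had 11.3, 11.5 and 10.99 FPKM after siSIRT6, 32.6, 34.2 and 29.8 FPKM after siKDM5C and 28.1, 28.1 and 30.3 FPKM in the controls. Both fell after siSIRT6 (-1.63, adjusted p = 8.96e-07 for KIF18B; -1.28, adjusted p = 1.49e-06 for MELK), KIF18B also after siKDM5C (-0.54, adjusted p = 0.000278; direct comparison -1.09, adjusted p = 1.31e-05), and MELK did not pass there (0.15, adjusted p = 0.0638). The mitotic kinases PBK and NEK2 and the cohesin protector CDCA5 were among the others that fell after siSIRT6 (-1.31, -0.9976 and -0.94).

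In the list of MuvB, DREAM and B-MYB genes, 6 of 11 fell after siSIRT6, none rose, and 3 rose and 3 fell after siKDM5C. Of all genes tested, 26.9% fell and 23.9% rose after siSIRT6. The siKDM5C shares of the list, 27.3% each way, were near the 25.6% and 25.9% of all genes tested. MYBL2, which encodes B-MYB, had 18.97, 17.9 and 17.8 FPKM after siSIRT6, 47.6, 45.8 and 51.8 FPKM after siKDM5C and 22.8, 22.5 and 22.6 FPKM in the controls. TFDP1, a dimer partner of E2F proteins, had 13.7, 12.99 and 13.002 FPKM after siSIRT6, 31.7, 29.7 and 28.8 FPKM after siKDM5C and 17.4, 18.3 and 19.6 FPKM in the controls. Both were lowest in siSIRT6 and highest in siKDM5C (MYBL2, -0.30, adjusted p = 0.00234 after siSIRT6 and 1.06, adjusted p = 2.22e-06 after siKDM5C; TFDP1, -0.45, adjusted p = 0.000369 after siSIRT6 and 0.68, adjusted p = 3.61e-05 after siKDM5C). E2F4 fell after both (-0.59 after siSIRT6 and -0.32 after siKDM5C).

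Some genes of these pathways rose after both knockdowns. Both comparisons use the same 3 controls, and the share of all genes tested that rose after both was not worked out. Other genes of the lists fell after both, among them E2F4, KIF18B, PBK and NEK2. ZW10, which recruits dynein to the kinetochore, had 10.4, 9.77 and 11.6 FPKM after siSIRT6, 12.1, 13.5 and 11.6 FPKM after siKDM5C and 3.77, 3.67 and 4.15 FPKM in the controls. MAD1L1, which holds MAD2 at unattached kinetochores, had 5.897, 6.02 and 6.49 FPKM after siSIRT6, 6.48, 6.86 and 7.73 FPKM after siKDM5C and 2.98, 2.61 and 2.67 FPKM in the controls. The controls were lowest for both (ZW10, 1.25, adjusted p = 6.17e-06 after siSIRT6 and 1.46, adjusted p = 2.66e-06 after siKDM5C; MAD1L1, 0.93, adjusted p = 1.85e-05 after siSIRT6 and 1.09, adjusted p = 8.17e-06 after siKDM5C). ZWINT, a kinetochore protein that binds ZW10, rose after siKDM5C, with 14.7, 15.99 and 14.9 FPKM after siSIRT6, 29.4, 27.9 and 29.4 FPKM after siKDM5C and 12.3, 12.5 and 14.1 FPKM in the controls (1.10, adjusted p = 3.5e-06 after siKDM5C), and TACC3, a stabiliser of spindle microtubules, had 6.58, 6.52 and 6.32 FPKM after siSIRT6, 11.7, 12.2 and 13.2 FPKM after siKDM5C and 5.47, 5.76 and 5.38 FPKM in the controls (1.03, adjusted p = 2.4e-06 after siKDM5C). Their rises after siSIRT6 (0.22, adjusted p = 0.0189 for ZWINT; 0.19, adjusted p = 0.0171 for TACC3) were lost when single libraries were left out, among them siSIRT6 replicate 2 and control replicate 1. The cohesin subunit SMC1A (0.62 after siSIRT6 and 0.55 after siKDM5C), the cytokinesis genes SEPTIN9 (0.87 and 0.63 in the same order) and CHMP4B (0.57 and 0.66), and the phosphatase inhibitor ENSA (1.06 and 0.65) also rose after both.

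By list, the other kinetochore genes had 14 of 22 lower and 4 higher after siSIRT6, the other spindle and centrosome genes 13 of 26 lower and 4 higher, and the other cytokinesis genes 3 of 11 lower and 5 higher, against 26.9% lower and 23.9% higher over all genes tested. The share of cytokinesis genes that were lower was near that background. The other subunits and regulators of the anaphase promoting complex had 11 of 17 that did not pass after siSIRT6, and 50.8% of all genes tested were called. FBXO5, an inhibitor of the complex, fell most among them, with 2.94, 2.87 and 2.73 FPKM after siSIRT6, 5.05, 6.08 and 4.93 FPKM after siKDM5C and 6.61, 5.86 and 5.46 FPKM in the controls (-0.86, adjusted p = 7.54e-05 after siSIRT6; -0.14, adjusted p = 0.215 after siKDM5C). ANAPC5 also fell after siSIRT6 (-0.42), ANAPC7 rose after both (0.29 after siSIRT6 and 0.46 after siKDM5C), and CDC23 fell after both (-0.27 and -0.46 in the same order).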

How the data were processed

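Total RNA of 9 PANC-1 libraries (siSIRT6, siKDM5C and control, 3 each) was sequenced from a stranded mRNA kit, per the labels' protocols. The authors deposited 1 FPKM value per gene and library, with no pooling of replicates. The submitters' processing notes name Trimmomatic, HISAT2, Cufflinks, HTSeq and hg38, without versions or roles, and no strand setting is stated. The unit was read from the values themselves, which step by whole reads in 100% of identifiers (tolerance 0.01 of a read). The annotated exon union served as the length for 58.93% of identifiers. For the rest, a length was searched per gene until whole reads were reached, so that their fit is a weaker check. This gave 18201414 to 26910442 reads per library, where 3 reads in 1 kb are worth 0.111 to 0.165 FPKM (counting error only).

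The 16135 genes that reached 1 FPKM in 3 or more libraries were fitted by limma-trend (limma 3.58.1, R 4.3.3). The fit used log2(FPKM + 1) and 1 term for each group over the 9 libraries together. P-values are two-sided and Benjamini-Hochberg adjusted over all genes tested, with a threshold of 0.05 in each of 3 comparisons. Log2 fold changes on this scale understate those of low genes. Changes of lists are given as counts and medians, with no test of a list. Alternatives were 2 pseudocounts, filters on low values, median-of-ratios scaling, a fit of only the groups compared, empirical Bayes without trend, replicate number as a block, removal of a trend over GC content and length, each library left out, and voom on the recovered reads. GC content is that of the longest transcript in GENCODE release 29 (GRCh38), which also gave coordinates. Length is the one at which the values of a gene gave whole reads, as described above. Symbols came from a list of gene names, and from GENCODE where that list had none. Promoter sequences are RefSeq's (GRCh38.p14).

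The 60 genes, their 10 classes, the 120 further genes and the tests were chosen with earlier results of these data known. Genes given with every library were, by rule, SIRT6 and KDM5C and, in each class, the 2 with the smallest adjusted p after siSIRT6 and the 1 with the smallest after siKDM5C. To these the rule adds genes past the threshold against most of the 60, genes called in opposite directions and, per further list, the 2 with the smallest adjusted p in each comparison with control. The rule named 34 of the 60, and the others given in full were chosen after their values were seen. Of the further genes it named, only some are given with every library, and that choice followed no rule. E2F4, SMC1A, SEPTIN9, CHMP4B, ENSA, NEK2, CDCA5, ANAPC5, ANAPC7 and CDC23 are given by fold change only. STAG1, SPAG5, KIF3B, NCAPG2, NCAPD3, CIT and CCNF are not described.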

Additional observations from a re-analysis of the deposited data

How the results depend on the processing

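With 3 libraries per group, calls close to the threshold depend on single libraries, and the siKDM5C results vary with GC content between libraries. In 20 alternatives (voom, on the recovered reads, was chosen after seeing the data), the count of mitosis genes that fell after siSIRT6 was 49 to 53, and 51 to 53 with 1 library left out, and 1 rose in all. Against siKDM5C, siSIRT6 had 48 to 55 lower (49 to 54 with 1 library left out) and 1 higher. The median after siSIRT6 (-0.79) was -0.89 with a pseudocount of 0.1, -0.85 with 0.5, -0.82 with a filter of 5 FPKM, -0.76 with median-of-ratios scaling, -0.75 with the GC and length trend removed, with or without the replicate block, -0.90 with voom, and -0.84 to -0.76 with 1 library left out. The median of siSIRT6 against siKDM5C (-0.79) was -0.87 with a pseudocount of 0.1, -0.84 with 0.5, -0.75 with median-of-ratios scaling, -0.88 with voom, and -0.82 to -0.73 with 1 library left out. After siKDM5C, 21 rose with the GC and length trend removed, and with 1 library left out 11 to 20 fell and 13 to 15 rose. With that trend removed, CDK1 (0.12, adjusted p = 0.0463) and SMC2 (0.12, adjusted p = 0.0427) reversed and passed as rises after siKDM5C. The cause of these shifts was not tested. Median-of-ratios scaling turned the balance of all genes after siSIRT6 to 4272 higher and 3893 lower, against 3861 and 4333 as reported. Replicate numbers did not pair the libraries (correlations of same-numbered libraries -0.229 to 0.252). The largest correlations were between libraries of different numbers. They were 0.426 for siKDM5C replicate 1 with control replicate 3, and -0.353 for siKDM5C replicate 2 with control replicate 3. A block by replicate number does not take up such shared deviations, and their part in the siKDM5C calls was not tested. With the replicate block, 53 fell and 1 rose after siSIRT6, 15 fell and 14 rose after siKDM5C, and 54 were lower and 1 higher in siSIRT6 than in siKDM5C.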

Other observations

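The polo-like kinase genes other than PLK1 did not share one direction, and these values were picked after they were seen. PLK2, a stress-responsive kinase of the family, had 38.1, 36.5 and 36.4 FPKM after siSIRT6, 24.05, 22.9 and 21.7 FPKM after siKDM5C and 17.1, 17.3 and 19.98 FPKM in the controls, and rose after both knockdowns (0.99, adjusted p = 9.57e-06 after siSIRT6; 0.32, adjusted p = 0.00447 after siKDM5C). PLK4, which starts centriole duplication, had 1.66, 1.77 and 1.58 FPKM after siSIRT6, 2.85, 3.802 and 2.66 FPKM after siKDM5C and 3.19, 3.75 and 3.16 FPKM in the controls. It fell after siSIRT6 (-0.71, adjusted p = 0.000706) and did not pass after siKDM5C (-0.10, adjusted p = 0.477). PLK3 did not pass after siSIRT6 (0.20, adjusted p = 0.0769) and rose after siKDM5C (0.27, adjusted p = 0.0286). WEE1, the kinase that holds CDK1 inactive and so opposes CDC25 phosphatases, had 5.09, 4.74 and 4.34 FPKM after siSIRT6, 8.502, 9.998 and 8.09 FPKM after siKDM5C and 9.66, 10.1 and 8.89 FPKM in the controls. Its siSIRT6 libraries lay below all others (-0.88, adjusted p = 6.46e-05), and it did not pass after siKDM5C (-0.10, adjusted p = 0.361). Its relative PKMYT1 did not pass after siSIRT6 (-0.14, adjusted p = 0.131) and rose after siKDM5C (0.39, adjusted p = 0.00232).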
